A study of Mus musculus with 12 samples.

Results

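The 3 iWAT libraries of bBMKO mice kept at ambient temperature were compared with the 3 of bBMCtr mice at the same temperature. These are 6 of the 12 libraries of the series, and the other 6 come from the same genotypes after cold acclimation. iWAT, inguinal subcutaneous white adipose tissue, is the mouse depot in which beige adipocytes form. The members were chosen by their genotype and housing labels, without use of any measured value. All mice were C57BL/6 and carried floxed Bmal1 on both alleles. bBMKO mice (BMKO in the labels) also carried the Prx1-Cre transgene, and bBMCtr mice (BMCtr) were littermates without it, so both groups share the floxed allele and only the Cre differs. Prx1-Cre acts in subcutaneous beige progenitors and in the adipocytes that come from them. Blood, immune and other cells of the same depot may therefore keep Bmal1 in bBMKO iWAT, and the libraries hold all of these cells. Ambient temperature is 22 °C in the series design and 21 °C in the study's methods. The legends give mice of 6 weeks sampled at ZT3, with ZT0 as lights on, while mice for cold acclimation were 10 to 12 weeks old by the methods. Each library has its own animal number in the labels and is read here as 1 mouse, so p-values measure the spread between mice.

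Bmal1, encoded by Arntl, pairs with Clock or its relative Npas2 to form the activating arm of the circadian clock, which binds E-box elements. Its targets include the Period and Cryptochrome repressors, the nuclear receptors Rev-erbα and Rev-erbβ (Nr1d1 and Nr1d2), and Dbp, Tef and Hlf, which activate from D-box elements. The Rev-erb receptors repress genes with ROR elements, among them Arntl, Clock, Npas2, Cry1 and Nfil3, and Nfil3 opposes Dbp on D-boxes. In adipose tissue this loop is known to act on lipid turnover, differentiation and thermogenesis.

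The 6 libraries held 17887795 to 21436282 counts, and every bBMKO library was deeper than every bBMCtr library (19697101 to 21436282 against 17887795 to 19277852). Values are given as CPM, read counts relative to the effective (TMM) library size, which are not corrected for gene length. Markers of lymph node and of muscle differed widely between libraries of the same genotype. The summed level of 35 lymphocyte and lymph node markers was 3581, 1451 and 86.6 CPM in bBMCtr replicates 1, 2 and 3, and 74.5, 135.2 and 1182 CPM in bBMKO replicates 1, 2 and 3. That of 35 skeletal muscle markers was 158.9, 2698 and 6943 CPM in bBMCtr and 3356, 3333 and 176.4 CPM in bBMKO. Replicate 1 of bBMCtr and replicate 3 of bBMKO were thus low in muscle and high in lymph node RNA, and bBMCtr replicate 2 was high in both. None of the lymphocyte markers was at 0 in an ambient library. For 33 mammary epithelial markers the sums were 1709 to 3492 CPM in bBMCtr and 2815 to 3459 CPM in bBMKO. For 12 adipocyte markers they were 15500 to 22440 CPM and 21550 to 29820 CPM, with bBMKO replicate 2 inside the bBMCtr range. Adipoq, the adipocyte hormone adiponectin, was read at 1083 CPM or more in every library. In bulk tissue, fewer cells of a type and less RNA per cell cannot be told apart. The 6 libraries had Xist, the RNA of the inactive X chromosome, at 1313 to 1519 CPM, as in female mice, whereas the study's legends differ on the sex. Replicate 2 of bBMKO in addition held reads of 4 Y-linked genes at 1.27 to 4.53 CPM, which is 3.61% to 4.37% of their mean in the cold libraries, while no other ambient library exceeded 0.108 CPM.

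**Figure D1:**
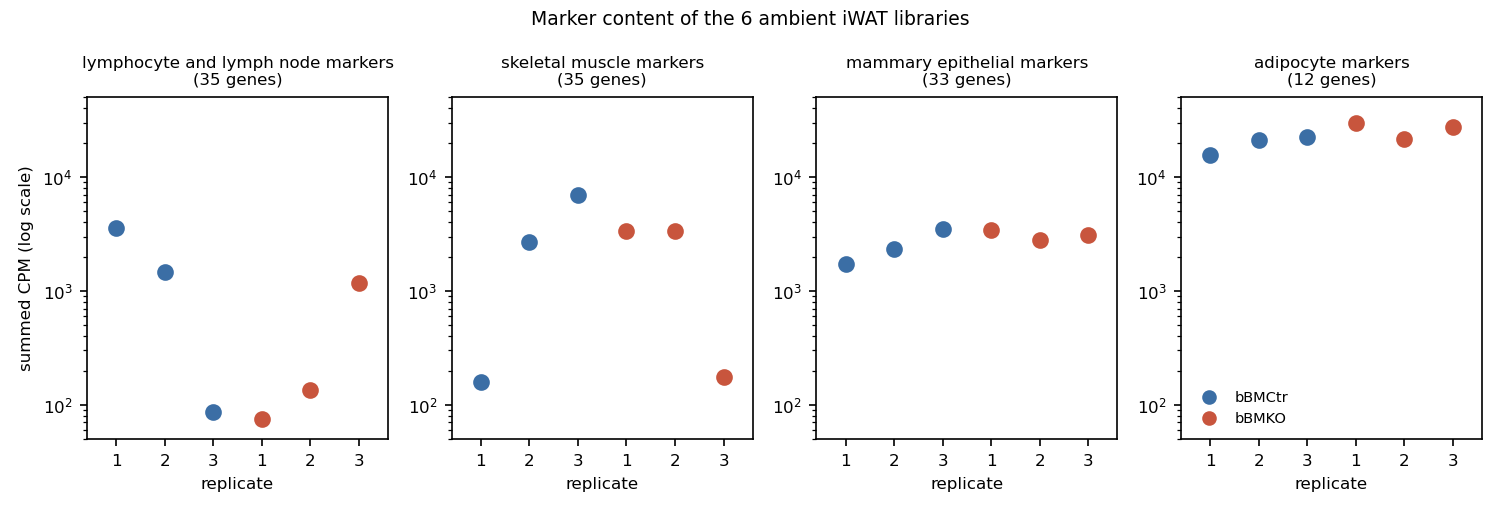
Summed CPM of 4 marker lists in each of the 6 ambient libraries, on log axes, with bBMCtr in blue and bBMKO in red and 1 point per library. Lymphocyte markers range from 74.5 to 3581 CPM and muscle markers from 158.9 to 6943 CPM with both genotypes at both ends, while mammary and adipocyte markers lie within a narrow range.

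Of 15413 genes tested, 598 (3.88%) were higher and 732 (4.75%) were lower in bBMKO than in bBMCtr, together 8.63%. The shares of 3.88% and 4.75% are the background for every count of list members below. Of the 598, 4 are the Y-linked genes read in bBMKO replicate 2, and 594 remain without them. To pass, a gene had to reach p under 0.05 and, after Benjamini-Hochberg adjustment, under 0.25 in the quasi-likelihood test of edgeR, with its 2 groups more than 1.5-fold apart. The verbs rose and fell are used of these genes only, and a value given with an SE or after rose by or fell by is a log2 fold change of bBMKO over bBMCtr. An unadjusted p under 0.05 alone was reached by 1936 higher (12.6%) and 1342 lower genes (8.71%), while 48.6% of all genes had a positive log2 fold change. At an adjusted p under 0.05 without a fold minimum, 491 were higher (3.19%) and 137 lower (0.889%). With library size alone in place of TMM factors, which moved the median of all genes by -0.121 on the log2 scale, 426 were higher and 1165 lower, so that 26.8% of the passing genes were higher in place of 45.0%. The directions differed in how they were spread over libraries. Of the higher genes, 533 (89.1%) had all 3 bBMKO libraries above all 3 bBMCtr libraries, against 372 (50.8%) of the lower genes with the reverse order, which is 3.46% and 2.41% of all genes tested. Passing or not, 21.1% of all genes tested did not overlap in one direction or the other. In 223 (30.5%) of the lower genes, the libraries with much lymph node RNA (bBMCtr 1 and 2 and bBMKO 3) were the 3 highest, compared with 12.6% of all genes tested and none of the higher genes. Most of these libraries are bBMCtr, so this order itself favours a call as lower and a higher gene could hardly show it. The shares therefore do not measure the part of lymph node RNA. The part of lymph node RNA in the lower genes was not tested beyond the covariate fits that follow.

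Single libraries moved the counts, those of the lower genes most. With bBMKO replicate 1 left out, 357 genes were higher and 169 lower. Without bBMCtr replicate 1 the counts were 364 and 433, and without bBMCtr replicate 3 they were 858 and 1231. With the lymphocyte marker level as a covariate 478 genes were higher and 590 lower, with that of muscle 696 and 1106, and with both 417 and 333. The genes that passed in the same direction in the fit to all libraries and in each of the 6 fits without one ambient library numbered 287 higher and 132 lower. These 287 and 132 genes, a set chosen after the data were seen, are called the stable set in what follows. Of them, 254 and 111 also passed with each covariate and in a fit to the 6 ambient libraries alone.

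**Figure D2:**
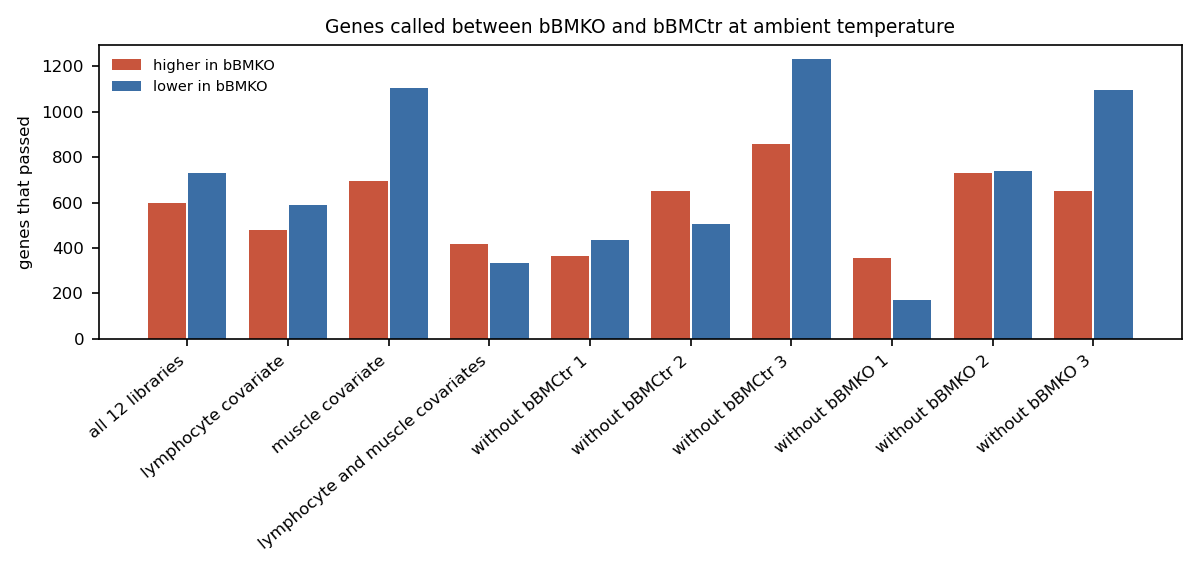
Number of genes that passed as higher (red) or lower (blue) in bBMKO, on a linear axis from 0, in the fit to all 12 libraries, with marker levels as covariates and with each ambient library left out. Lower genes range from 169 without bBMKO replicate 1 to 1231 without bBMCtr replicate 3, and higher genes from 357 to 858.

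Genes of the activating arm were higher in bBMKO. Of 4 activators, 3 passed as higher and none as lower, with a median log2 fold change of 1.13 against -0.01 over all genes tested, and these 3 passed when any one library was left out. Npas2, the partner that can stand in for Clock, was at 1.08, 1.35 and 1.51 CPM in bBMCtr and 59.6, 59.5 and 61.7 CPM in bBMKO. The groups were far apart, with a mean 45.7-fold higher in bBMKO (log2 fold change 5.52, SE 0.19, adjusted p = 4.98e-07). Clock itself was at 81.6, 70.3 and 77.2 CPM in bBMCtr and 172, 162 and 164 CPM in bBMKO, with no overlap and a rise of 1.12, SE 0.08, adjusted p = 0.000142. Arntl, the floxed gene, was at 10.7, 7.58 and 3.77 CPM in bBMCtr and 13.5, 16.9 and 18.2 CPM in bBMKO (1.14, SE 0.30, adjusted p = 0.0638). Arntl did not pass in the fit to the 6 ambient libraries alone (adjusted p = 0.302). Arntl2, a relative of Arntl, overlapped between genotypes (-0.05, SE 0.19, adjusted p = 0.906). Arntl counts are taken over the whole gene, and the floxed exons are not given in the labels. A recombined allele may therefore still give reads, and the labels are not checked by these counts. The study itself reports Bmal1 protein as absent and Bmal1 transcript as lost in bBMKO iWAT, in male mice.

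The repressors divided by family. Of 8 tested, 2 passed as higher and 2 as lower, with a median of -0.08. The Cryptochromes, which block Clock and Bmal1 in the nucleus, were both higher. Cry1 was at 22.3, 21.1 and 18.6 CPM in bBMCtr and 49.8, 37.9 and 44.1 CPM in bBMKO (1.09, SE 0.13, adjusted p = 0.00174), and Cry2 rose by 0.65 (SE 0.12, adjusted p = 0.0184). Cry2 no longer passed without bBMCtr replicate 1, without bBMKO replicate 1 or with the lymphocyte covariate. Per3 and Ciart, a repressor that binds Clock and Bmal1, were lower. Per3 was at 152, 199 and 205 CPM in bBMCtr and 83.1, 63.5 and 77.8 CPM in bBMKO, so that no bBMKO library reached a bBMCtr library (-1.31, SE 0.15, adjusted p = 0.00137). Ciart was at 6.36, 6.37 and 9.53 CPM in bBMCtr and 3.36, 3.67 and 3.23 CPM in bBMKO, a difference of -1.12, SE 0.17, adjusted p = 0.00629. Per1 and Per2 overlapped between genotypes, with log2 fold changes of -0.15 (SE 0.23, adjusted p = 0.728) and -0.12 (SE 0.19, adjusted p = 0.751), and Bhlhe40 (0.04, SE 0.47, adjusted p = 0.967) and Bhlhe41 (-0.04, SE 0.30, adjusted p = 0.961), E-box repressors, did not pass.

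Among 9 Rev-erb, ROR and PAR bZIP factors, 4 passed as lower and 2 as higher (median -0.56). Nr1d2 (Rev-erbβ) was at 126, 132 and 144 CPM in bBMCtr and 60.7, 62.8 and 67.2 CPM in bBMKO, the smallest p of all lower genes (-1.08, SE 0.09, adjusted p = 0.000208). Nr1d1 (Rev-erbα) was at 119, 126 and 135 CPM in bBMCtr and 72.8, 58.6 and 73 CPM in bBMKO, also with no overlap. Dbp, the D-box activator, was at 145, 179.8 and 200.2 CPM in bBMCtr and 69.99, 52.9 and 69.6 CPM in bBMKO and fell by 1.45 on the log2 scale (SE 0.15, adjusted p = 0.000603). Hlf fell by 0.80 (adjusted p = 0.0378), while Tef, at -0.56 (adjusted p = 0.0439), missed the fold minimum although its groups did not overlap. Nfil3, the D-box repressor, moved the opposite way, from 8.48, 8.98 and 13.1 CPM in bBMCtr to 58.7, 62.4 and 42.5 CPM in bBMKO (2.42, SE 0.22, adjusted p = 0.000389). Rora (0.11, SE 0.14, adjusted p = 0.703) and Rorb (0.30, SE 0.27, adjusted p = 0.533) did not pass. Of 10 clock output genes 2 were higher, Noct (1.27), nocturnin, and Lonrf3 (1.30), and 2 were lower, the cell cycle kinase Wee1 (-0.71) and the tetraspanin Tspan4 (-0.79).

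**Figure D3:**
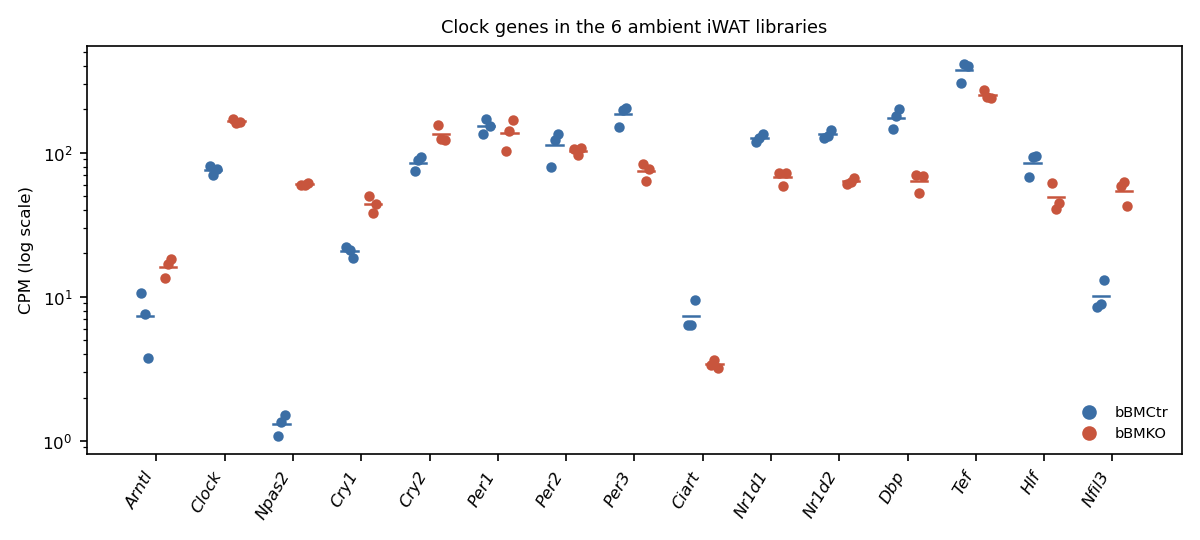
CPM of 15 clock genes on a log axis, with 1 point per library, bBMCtr in blue and bBMKO in red, and the group mean as a line. Npas2 lies near 1 CPM in bBMCtr and near 60 CPM in bBMKO, and Per3, Ciart, Nr1d1, Nr1d2, Dbp and Hlf lie lower in all 3 bBMKO libraries while Per1 and Per2 overlap.

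The promoter windows of the passing clock factors and sterol genes were read from RefSeq (GRCm38.p6, the build of the files' mm10 coordinates), with 250 bases before and 50 after each annotated start. Of 20 such genes 19 had a window. They were searched on both strands for the E-box CACGTG, the D-box TTATGNAA, the ROR element AGGTCA and the sterol response element CACCCCAC, which are held by 7.15%, 3.38%, 16.3% and 2.87% of all 32851 windows. An E-box was found in 4 of the 19 genes, a D-box in 1, a ROR element in 6 and a sterol response element in 3. A match is a description and not a bound site, and windows without a match say nothing about sites elsewhere. Windows of 4 genes that moved in different directions are printed 5′ to 3′ on the gene's own strand, with the matches in capitals. The Ciart window (chr3:95882179-95882478, minus strand) held 3 E-boxes and the Per3 window (chr4:151044616-151044915, minus strand) 2 D-boxes, both in genes that fell. The Cry1 window (chr10:85185005-85185304, minus strand) held 1 E-box and 1 sterol response element that overlap each other, in a gene that rose, and the Hmgcs1 window (chr13:119690101-119690400, plus strand) held 1 ROR element and 1 sterol response element.
Ciart: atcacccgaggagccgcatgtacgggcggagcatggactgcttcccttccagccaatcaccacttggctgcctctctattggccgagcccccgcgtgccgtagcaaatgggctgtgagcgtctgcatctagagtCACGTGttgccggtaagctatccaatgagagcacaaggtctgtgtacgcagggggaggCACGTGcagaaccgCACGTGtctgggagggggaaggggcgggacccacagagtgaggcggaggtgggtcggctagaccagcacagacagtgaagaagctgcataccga
Per3: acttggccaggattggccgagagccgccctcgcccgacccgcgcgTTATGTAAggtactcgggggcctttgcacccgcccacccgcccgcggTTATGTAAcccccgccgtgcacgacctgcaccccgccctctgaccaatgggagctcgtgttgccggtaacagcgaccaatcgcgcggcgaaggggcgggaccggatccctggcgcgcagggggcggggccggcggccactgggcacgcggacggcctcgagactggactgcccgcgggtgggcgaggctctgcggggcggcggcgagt
Cry1: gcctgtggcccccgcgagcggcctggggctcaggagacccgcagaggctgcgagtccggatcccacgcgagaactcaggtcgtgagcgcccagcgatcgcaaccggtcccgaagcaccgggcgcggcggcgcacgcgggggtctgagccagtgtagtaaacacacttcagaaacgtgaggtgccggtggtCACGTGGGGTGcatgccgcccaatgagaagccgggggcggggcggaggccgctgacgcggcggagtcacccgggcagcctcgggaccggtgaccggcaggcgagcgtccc
Hmgcs1: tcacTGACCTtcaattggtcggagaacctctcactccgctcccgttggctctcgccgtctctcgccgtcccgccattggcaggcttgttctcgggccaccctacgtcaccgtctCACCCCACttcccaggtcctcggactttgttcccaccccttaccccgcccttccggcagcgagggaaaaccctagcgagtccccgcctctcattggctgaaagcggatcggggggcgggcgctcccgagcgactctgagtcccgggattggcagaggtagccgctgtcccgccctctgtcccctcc

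The 10 higher genes with the smallest p, among those without overlap and with at least 1 CPM, were Npas2, Hmgcs1, Clock, Cdkn1a, Col4a3, Aatk, Xrcc3, Nap1l5, Slc19a1 and Col5a3, and all 10 belonged to the stable set. Hmgcs1, which makes the HMG-CoA used for sterol synthesis, was at 104, 101 and 98.8 CPM in bBMCtr and 579.9, 496 and 439 CPM in bBMKO (2.32, SE 0.11, adjusted p = 4.76e-06). Cdkn1a, the Cdk inhibitor p21, was at 36.97, 23.8 and 27.8 CPM in bBMCtr and 143, 201 and 146 CPM in bBMKO, a rise of 2.47, SE 0.18, adjusted p = 0.000142. The lowest bBMKO library of either gene was more than 3 times the highest bBMCtr library. Aatk, a membrane-bound kinase, was at 24.6, 36.4 and 30.5 CPM in bBMCtr and 124, 94.9 and 119 CPM in bBMKO, and the region also holds the microRNA gene Mir3065 inside Aatk, whose reads may be shared with it. Xrcc3, which acts in homologous recombination repair, was at 4.58, 4.34 and 5.01 CPM in bBMCtr and 17.04, 15.02 and 17.5 CPM in bBMKO (1.83, SE 0.14, adjusted p = 0.000142). Slc19a1, the reduced folate carrier, was at 19.6, 20.9 and 23.2 CPM in bBMCtr and 71.9, 53.9 and 67.8 CPM in bBMKO, with the lowest bBMKO library above the highest bBMCtr library. Of the 10, Npas2 and Cdkn1a had an even larger difference in the cold by the test of the interaction described at the end.

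The 10 lower genes chosen in the same way were Nr1d2, Crtac1, St3gal4, Acsm5, Dbp, Per3, Cys1, Cybrd1, Kcnj15 and Nr1d1, so that 4 of them are clock factors, and all 10 were in the stable set. Crtac1, a secreted matrix protein of cartilage, was at 4.73, 6.76 and 9.91 CPM in bBMCtr and 0.6104, 0.356 and 0.231 CPM in bBMKO. This was the largest fall of the 10, at -4.15, SE 0.38, adjusted p = 0.000389. Acsm5, a mitochondrial medium-chain acyl-CoA synthetase, was at 20.7, 19.9 and 21.2 CPM in bBMCtr and 7.83, 6.57 and 8.26 CPM in bBMKO (-1.45, SE 0.14, adjusted p = 0.000535). St3gal4, a sialyltransferase, was at 79.7, 102 and 87.7 CPM in bBMCtr and 50.05, 49.4 and 51.1 CPM in bBMKO, a small but even difference of -0.84, SE 0.08, adjusted p = 0.000528. Cybrd1, a ferric reductase that aids iron uptake, was at 2.32, 2.37 and 2.69 CPM in bBMCtr and 0.661, 0.713 and 0.877 CPM in bBMKO, where all bBMKO libraries were under 1 CPM. Kcnj15, an inward rectifier potassium channel, and Cys1, a protein of the primary cilium, fell by 1.77 (adjusted p = 0.00267) and 2.22 (adjusted p = 0.00159).

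**Figure D4:**
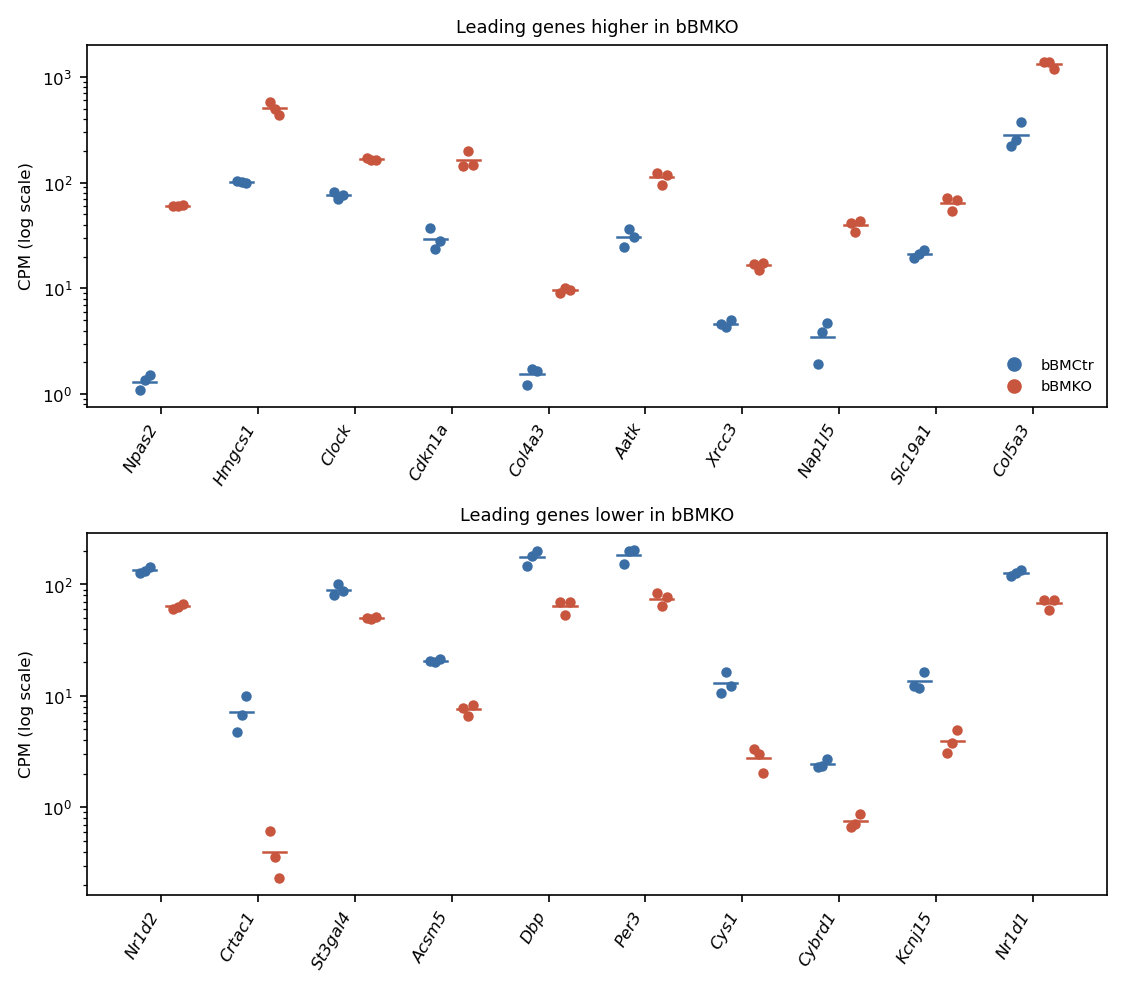
CPM of the 10 leading genes higher (top) and lower (bottom) in bBMKO on log axes, with 1 point per library, bBMCtr in blue and bBMKO in red, and the group mean as a line. In all 20 genes the groups do not overlap.

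Most of the tested receptors for metabolites on fat cells rose. Of 9 antilipolytic and fatty acid receptors, 6 passed as higher and 1 as lower (median 0.83), and between 4 (without bBMKO replicate 1) and 6 were higher when one library was left out. Ffar2, a receptor for short-chain fatty acids, was at 23.2, 16.5 and 13.9 CPM in bBMCtr and 71.2, 61.9 and 71.2 CPM in bBMKO, with every bBMKO library more than 2 times any bBMCtr library (1.93, SE 0.17, adjusted p = 0.000389). Ffar4, for long-chain fatty acids, was at 12.8, 13.1 and 11.6 CPM in bBMCtr and 23.5, 19.96 and 23.02 CPM in bBMKO (0.83, SE 0.10, adjusted p = 0.00235). Sucnr1, for succinate, rose by 1.16 (adjusted p = 0.0147), and Hcar2, for hydroxybutyrate and niacin, by 0.91 (adjusted p = 0.0462). Ffar2 and Hcar2 couple to Gi proteins, which lower cAMP. Of 34 adrenergic and cAMP signalling genes 3 were higher and 3 lower (median 0.01), with 6 higher without bBMCtr replicate 3 or bBMKO replicate 2, and none lower without bBMKO replicate 1. Adcy5, an adenylyl cyclase, was at 199, 110.4 and 137 CPM in bBMCtr and 328, 341 and 303 CPM in bBMKO (1.12, SE 0.19, adjusted p = 0.00927). Pde3a, which degrades cAMP, rose by 0.87 (adjusted p = 0.00438), as did Akap1, which anchors protein kinase A at mitochondria (0.93, adjusted p = 0.0115). Pde4b, another cAMP phosphodiesterase, fell by 0.95 (adjusted p = 0.0742).

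Thermogenic genes rested on few members. Of 27, 6 passed as higher and 2 as lower (median 0.12), but only 1 was higher without bBMCtr replicate 1 or without bBMKO replicate 1. Ucp1, the uncoupling protein of brown and beige adipocytes, was at 1.33, 0.0965 and 0.323 CPM in bBMCtr and 26.96, 13.03 and 0.738 CPM in bBMKO. Its level in bBMKO replicate 3 was below that of bBMCtr replicate 1, the groups overlapped, and it passed only narrowly (4.51, SE 1.98, adjusted p = 0.224). Of its 22 alternatives 15 lost the call. The study reports Ucp1 mRNA by RT-qPCR, and UCP1 protein by immunostaining and immunoblot, as higher in bBMKO iWAT. In the cold libraries Ucp1 was at 7.85 to 1553 CPM, and bBMKO replicate 2 held Y-linked reads at 3.61% to 4.37% of their cold mean. Whether this bears on the 13.03 CPM of Ucp1 in that library was not tested. Dio2, which activates thyroid hormone, was at 3.06, 2.12 and 5.01 CPM in bBMCtr and 33.7, 16.8 and 16.98 CPM in bBMKO, without overlap (2.73, SE 0.49, adjusted p = 0.0139), and it was the only gene of the list in the stable set.

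Mitochondrial lists had medians somewhat above 0, with differences mostly under the fold minimum. The 12 adipocyte markers had a median of 0.47, with 11 positive and 7 higher at an unadjusted p under 0.05. How far adipocyte content bears on the mitochondrial lists and the lipid lists that follow was not tested. Of 84 genes of the respiratory complexes and ATP synthase 7 passed as higher and none as lower (median 0.42), 80 had a positive log2 fold change, and 62 were higher at an unadjusted p under 0.05, against 12.6% of all genes tested. Those higher numbered 4 without bBMCtr replicate 1 or bBMKO replicate 1 and 25 without bBMCtr replicate 3. With the lymphocyte covariate 6 were higher and 2 lower, with the muscle covariate 10 were higher, and with both 3 were higher. Of 76 mitochondrial ribosomal proteins none was higher and 1 lower (median 0.25), though 73 were positive and 35 were higher at an unadjusted p under 0.05. Of 32 genes of mitochondrial fatty acid oxidation 7 were higher and none lower (median 0.39), with 2 higher without bBMCtr replicate 1 and 9 without bBMKO replicate 2. In the branched-chain amino acid pathway, which burns leucine, isoleucine and valine, 5 of 26 were higher and none lower (median 0.45). The count was 2 without bBMCtr replicate 1 and 12 without bBMKO replicate 2. Mccc2, of the leucine pathway, rose by 0.82 (adjusted p = 0.00895) and Mcee, which feeds methylmalonyl-CoA onward, by 0.80 (adjusted p = 0.0526). Of 44 peroxisome genes 7 were higher and none lower (median 0.32), with 14 higher without bBMCtr replicate 3. Gnpat, the first enzyme of ether lipid synthesis, was at 128, 150 and 175 CPM in bBMCtr and 363, 252 and 347 CPM in bBMKO (1.09, SE 0.16, adjusted p = 0.00501). In the tricarboxylic acid cycle list 6 of 35 were higher, but none was without bBMKO replicate 1 and 10 were without bBMKO replicate 2. The lymphocyte covariate left 3 of that list higher, the muscle covariate 7, and both covariates none. With both covariates 3 fatty acid oxidation, 4 branched-chain amino acid and 5 peroxisome genes were higher. Of 22 PGC-1, ERR and PPAR regulators 2 were higher (4 without bBMCtr replicate 2 or bBMKO replicate 2, 1 without bBMCtr replicate 1 or bBMKO replicate 1). Rxrg, a partner of PPAR receptors, was at 11.9, 12.4 and 9.05 CPM in bBMCtr and 30.3, 22.8 and 27.5 CPM in bBMKO (1.27, SE 0.14, adjusted p = 0.0012), while Ppargc1b passed narrowly (0.65, adjusted p = 0.206) and lost the call in 15 of its 22 alternatives.

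Some genes that build and store triglyceride rose. Of 34 fatty acid and triglyceride synthesis genes 8 were higher and 2 lower (median 0.45), with 6 to 11 higher when one library was left out. Agpat3, an acyltransferase of glycerolipid synthesis, was at 153, 162 and 181 CPM in bBMCtr and 341, 307 and 314 CPM in bBMKO (0.95, SE 0.13, adjusted p = 0.00343), and Gpat3, which starts triglyceride synthesis, was at 79.7, 114 and 110.3 CPM in bBMCtr and 226, 186 and 197 CPM in bBMKO (adjusted p = 0.00733). Of 19 lipid droplet proteins 4 were higher and none lower (median 0.47). Bscl2 (seipin), which shapes nascent droplets, was at 154, 166 and 200 CPM in bBMCtr and 318, 279.6 and 303 CPM in bBMKO, and Fitm2, which partitions fat into droplets, rose by 0.75 (adjusted p = 0.00719). Of 19 lipolysis genes 5 were higher and none lower (median 0.46), with 8 higher without bBMKO replicate 2. Of 27 sterol genes 7 were higher and none lower (median 0.37), and the count was 3 without bBMCtr replicates 1 or 2 or bBMKO replicate 1 and 12 without bBMCtr replicate 3 or bBMKO replicate 3. With the lymphocyte covariate 3 sterol genes were higher (median 0.12), with the muscle covariate 9 (median 0.42) and with both 3. Pmvk, a kinase of the mevalonate pathway, was at 23.6, 28.9 and 39.3 CPM in bBMCtr and 75.99, 58.1 and 54.96 CPM in bBMKO (1.04, SE 0.23, adjusted p = 0.0332). Slc16a1, a transporter of lactate and ketone bodies, was at 51.8, 41.1 and 49.8 CPM in bBMCtr and 173, 165 and 114 CPM in bBMKO (1.66, SE 0.22, adjusted p = 0.00314), the strongest of 3 higher and no lower among 39 glycolysis and glycogen genes (10 higher without bBMCtr replicate 3). Irs3, an insulin receptor substrate of rodents, was at 19.8, 25.5 and 30.3 CPM in bBMCtr and 74.3, 54.8 and 65.01 CPM in bBMKO (1.36, SE 0.15, adjusted p = 0.000948).

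Folate and one-carbon genes moved in both directions, with 5 of 29 higher and 2 lower (median 0.06). Besides Slc19a1, the proton-coupled folate transporter Slc46a1 rose by 0.76 (adjusted p = 0.0365). Cbs, the first enzyme from homocysteine to cysteine, was at 4.34, 8.45 and 7.27 CPM in bBMCtr and 17.2, 17.9 and 21.1 CPM in bBMKO (1.49, SE 0.25, adjusted p = 0.0101), and Cth, the next enzyme of that route and a member of the stress response list, rose by 1.34 (adjusted p = 0.0402).

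Among imprinted genes, which are expressed from one parental allele, 5 of 29 were higher and 1 was lower (median 0.25). Peg3, a zinc finger gene of the paternal allele, was at 53.04, 62.3 and 59.5 CPM in bBMCtr and 459.5, 395 and 578 CPM in bBMKO. Its neighbour Zim1, on the maternal allele of the same domain of chromosome 7, was at 3.01, 6.76 and 8.94 CPM in bBMCtr and 49.2, 33.5 and 58.7 CPM in bBMKO. Both had every bBMKO library more than 3 times any bBMCtr library, with log2 fold changes of 3.03, SE 0.27, adjusted p = 0.000389 for Peg3 and 2.92, SE 0.44, adjusted p = 0.00627 for Zim1. Nap1l5 on chromosome 6, a nucleosome assembly gene of the paternal allele, was at 1.92, 3.91 and 4.68 CPM in bBMCtr and 41.2, 34.4 and 43.5 CPM in bBMKO (3.50, SE 0.26, adjusted p = 0.000142). Plagl1, a zinc finger growth regulator, rose by 1.15 (adjusted p = 0.0239). These 4 were in the stable set, and the counts of higher members were 4 to 7 with one library left out.

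Matrix genes changed in both directions. Of 26 basement membrane genes 5 were higher and 2 lower (median 0.07), with 8 higher without bBMCtr replicate 3 and 3 without bBMCtr replicate 1. The higher ones included 4 chains of type IV collagen. Col4a3 and Col4a4 lie head to head on chromosome 1, at 82586921 to 82722059 and 82450723 to 82586849. Col4a3 was at 1.23, 1.74 and 1.67 CPM in bBMCtr and 9.11, 10.2 and 9.64 CPM in bBMKO (2.64, SE 0.19, adjusted p = 0.000142) and Col4a4 at 3.5, 4.01 and 5.06 CPM in bBMCtr and 10.3, 11.8 and 9.51 CPM in bBMKO (1.33, SE 0.16, adjusted p = 0.00167). The abundant chain Col4a1 rose by 0.76 (adjusted p = 0.039). Of 32 other collagen chains 4 were higher and 8 lower (median -0.06). Col5a3, a chain of fibrillar type V collagen, was at 223, 251 and 377 CPM in bBMCtr and 1366, 1383 and 1180 CPM in bBMKO, and Col6a1 rose by 0.87 (adjusted p = 0.00439). Col9a3, of cartilage type IX collagen, was at 6.999, 10.6 and 21.8 CPM in bBMCtr and 4.37, 3.97 and 4.71 CPM in bBMKO (-1.59, SE 0.34, adjusted p = 0.0301). The lower chains numbered 3 without bBMKO replicate 1 and 4 without bBMCtr replicate 3.

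Enzymes that remodel matrix followed the same mixed pattern. Of 45 matrix proteases and inhibitors 6 were higher and 5 lower (median 0.04), with 3 higher without bBMCtr replicate 1 and 3 lower without bBMCtr replicate 2. Adamts4, an aggrecanase, was at 1.33, 1.74 and 2.91 CPM in bBMCtr and 9.41, 12.1 and 6.55 CPM in bBMKO (2.23, SE 0.31, adjusted p = 0.00452). Timp3, a tissue inhibitor of such proteases, was at 848, 1044 and 948 CPM in bBMCtr and 435, 602 and 438 CPM in bBMKO (-0.95, SE 0.14, adjusted p = 0.00617). Lox, which crosslinks collagen and elastin, was at 41.8, 57.6 and 51.5 CPM in bBMCtr and 149.9, 166 and 155 CPM in bBMKO (1.64, SE 0.15, adjusted p = 0.000389), and it led the 4 higher genes among 53 proteoglycan, matricellular and crosslinking genes, of which 7 were lower (2 lower without bBMKO replicate 1, 1 higher without bBMKO replicate 2). Podn, a leucine-rich proteoglycan, was at 84.1, 152 and 95.6 CPM in bBMCtr and 41.2, 41.1 and 52.1 CPM in bBMKO. Of 42 integrins and adaptors 1 was higher, Itga7 (0.98, adjusted p = 0.00418), a laminin receptor, and 5 were lower, with 2 lower without bBMKO replicate 1 and 9 without bBMCtr replicate 3. Of 19 matrix genes that the study picked for a heatmap from these samples, 16 were lower and none higher (median -0.80), which is not independent evidence of their direction.

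For SRF and its actin-sensing coactivators, the pathway the study relates to Bmal1, few genes passed. Of 27 regulators none was higher and 1 lower (median -0.08), and of 44 targets and actin genes none was higher and 3 lower (median -0.29). At an unadjusted p under 0.05 alone, 11 of the 44 were lower and none higher, against 8.71% lower of all genes tested. Only 8 of the 44 had a positive log2 fold change. Of the 27 regulators 5 were lower and 1 higher at that p. Srf, the serum response factor, was at 74.1, 74.4 and 63.4 CPM in bBMCtr and 56.3, 57.9 and 51.2 CPM in bBMKO. All bBMKO libraries were below all bBMCtr libraries, but at -0.36 (SE 0.13, adjusted p = 0.166) the difference was under the fold minimum. Mkl1 (MRTF-A) was at 81.1, 61.1 and 42.6 CPM in bBMCtr and 38.8, 41.9 and 51.9 CPM in bBMKO, with overlap (-0.48, SE 0.20, adjusted p = 0.207). Vcl (-0.04, adjusted p = 0.89), Fhl1 (-0.33, adjusted p = 0.646), Fhl2 (-0.44, adjusted p = 0.239) and Ctgf (0.52, adjusted p = 0.434) did not pass. The study calls Srf and Mkl1 moderately reduced in bBMKO iWAT at ambient temperature. By RT-qPCR it found Srf and Vcl lower in isolated mature adipocytes but not in the stromal vascular cells, which whole tissue does not separate. The passing targets were the integrin Itga9 (-0.64), the calponin Cnn2 (-0.90) and the actin-binding Synpo2 (-0.79), and none of the list was lower without bBMKO replicate 1. With the lymphocyte covariate 2 of the list were lower, with the muscle covariate 3, and with both none was lower and 1 was higher. Of 31 immediate-early genes, which serum and stress induce, 4 were lower and 1 higher (median -0.24). Nr4a3 was at 9.17, 5.84 and 3.72 CPM in bBMCtr and 2.85, 1.78 and 2.95 CPM in bBMKO (-1.30, SE 0.33, adjusted p = 0.0561), and Egr3 at 51.6, 23.6 and 6.79 CPM in bBMCtr and 6.51, 10.2 and 11.9 CPM in bBMKO, with bBMCtr replicate 3 inside the bBMKO range. Lower members numbered 8 without bBMCtr replicate 3. Of 18 MRTF/SRF genes that the study picked from these samples 11 were higher and 5 lower (1 lower without bBMKO replicate 1), and of 19 picked fat cell differentiation genes 19 were higher, which again are not independent counts. The study reports the positive targets of MRTF/SRF as lower. The 18 genes were not split here by the sign of their regulation.

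Signalling lists were split, beside 3.88% higher and 4.75% lower over all genes tested. Of 50 Wnt pathway genes 3 were higher and 5 lower (median -0.09), with 6 higher without bBMCtr replicate 3, and 1 higher and 2 lower without bBMKO replicate 1. Axin2, a feedback inhibitor that Wnt induces, rose by 0.78 (adjusted p = 0.0225). Rspo1, a Wnt agonist, was at 2.56, 6.95 and 12.9 CPM in bBMCtr and 1.37, 1.99 and 1.8 CPM in bBMKO (-2.11, SE 0.46, adjusted p = 0.0335), and the ligand Wnt10a was at 2.02, 1.98 and 2.53 CPM in bBMCtr and 0.814, 0.764 and 1.25 CPM in bBMKO. Of 52 TGF-beta, BMP and activin genes 2 were higher and 4 lower (2 lower without bBMCtr replicate 2). Acvr1c (ALK7), a receptor of mature adipocytes, was at 65.6, 78.5 and 101 CPM in bBMCtr and 239, 165 and 274 CPM in bBMKO (1.47, SE 0.21, adjusted p = 0.00483). Fst (follistatin), which binds activin, rose by 0.74 (adjusted p = 0.00657), and Id4, a dominant-negative helix-loop-helix factor, fell by 1.29 (adjusted p = 0.0258). Among 31 secreted factors 5 were higher and 1 lower (3 higher without bBMCtr replicate 1 or bBMKO replicate 1). Agt (angiotensinogen) was at 13.3, 23.9 and 19.6 CPM in bBMCtr and 75.4, 79.1 and 104 CPM in bBMKO (2.19, SE 0.33, adjusted p = 0.00617), more than 3 times higher in each bBMKO library than in any bBMCtr library.

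A share of the cell division genes fell, and how many passed depended on single libraries. Of 52 genes 19 were lower and 1 was higher (median -0.83), compared with 4.75% lower among all genes tested. Without bBMCtr replicate 1 only 2 were lower, without bBMCtr replicate 3 there were 3, without bBMKO replicate 1 there was 1, and without bBMKO replicate 2 there were 27. Without bBMKO replicate 3 there were 7. The median moved less, from -0.52 without bBMCtr replicate 3 to -1.16 without bBMKO replicate 2, and was -0.87 without bBMCtr replicate 1. With the lymphocyte covariate 18 were lower (median -0.92), with the muscle covariate 15 (median -0.80) and with both 4. Cdc6, a replication licensing factor, was at 4.63, 3.67 and 6.19 CPM in bBMCtr and 1.83, 2.8 and 1.89 CPM in bBMKO (-1.15, SE 0.28, adjusted p = 0.0462), and was the only member of the list in the stable set. E2f2, the exception, was at 17.9, 8.59 and 5.92 CPM in bBMCtr and 34.99, 26.6 and 21.96 CPM in bBMKO. Of 31 Cdk inhibitors and p53 targets 3 were higher and 1 lower (median 0.09). Beside Cdkn1a these were Cdkn2b, the inhibitor p15 (0.93, adjusted p = 0.029), and Plk2 (0.82, adjusted p = 0.0182), a kinase that p53 induces. Of 40 unfolded protein and integrated stress response genes 4 were higher and none lower, with 8 without bBMKO replicate 3 and 1 without bBMCtr replicate 1. Atf5 rose by 0.66 (adjusted p = 0.0289) and Nupr1 by 0.75 (adjusted p = 0.0416).

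Few immune and other cell markers passed, and the counts of several lists moved with single libraries. All 35 lymphocyte markers had a negative log2 fold change (median -1.92), but 1 passed, Madcam1, an adhesion molecule of lymph node venules, at 2.56, 1.69 and 1.19 CPM in bBMCtr and 0.254, 0.204 and 1.2 CPM in bBMKO. Without bBMCtr replicate 3 the lower ones numbered 34, and without bBMKO replicate 3 there were 35. Of 11 MHC class II genes 3 were lower and none higher (median -0.69), none was lower without bBMCtr replicates 1 or 2 or bBMKO replicate 1, 11 were without bBMCtr replicate 3, and none was with the lymphocyte covariate. Ciita, the class II master regulator, was at 148, 71.4 and 19.4 CPM in bBMCtr and 20.8, 21.7 and 41.6 CPM in bBMKO. Of 33 macrophage markers 2 were lower (9 without bBMKO replicate 2). Itgax (CD11c) was at 22.6, 20.3 and 11.6 CPM in bBMCtr and 6.56, 4.99 and 10.6 CPM in bBMKO, with no overlap (-1.30, SE 0.35, adjusted p = 0.0707). Of 59 interferon-stimulated genes 1 was higher, Ifi27 (0.63, adjusted p = 0.0288), and 1 was lower, Ifitm1 (-0.96, adjusted p = 0.0704), with 8 lower without bBMKO replicate 2 and 6 without bBMCtr replicate 3. Masp1, a protease of the lectin complement pathway, was at 3.01, 3.43 and 5.87 CPM in bBMCtr and 13.3, 11.7 and 11.5 CPM in bBMKO (1.57, SE 0.28, adjusted p = 0.0143). None of 34 muscle markers passed (median -0.55), and none passed in either direction when any one library was left out. Of 29 mammary markers 1 was higher, the prolactin receptor Prlr at 362, 574 and 673 CPM in bBMCtr and 1041, 771 and 1049 CPM in bBMKO, and 2 were lower, with 7 lower without bBMCtr replicate 1.

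**Figure D5:**
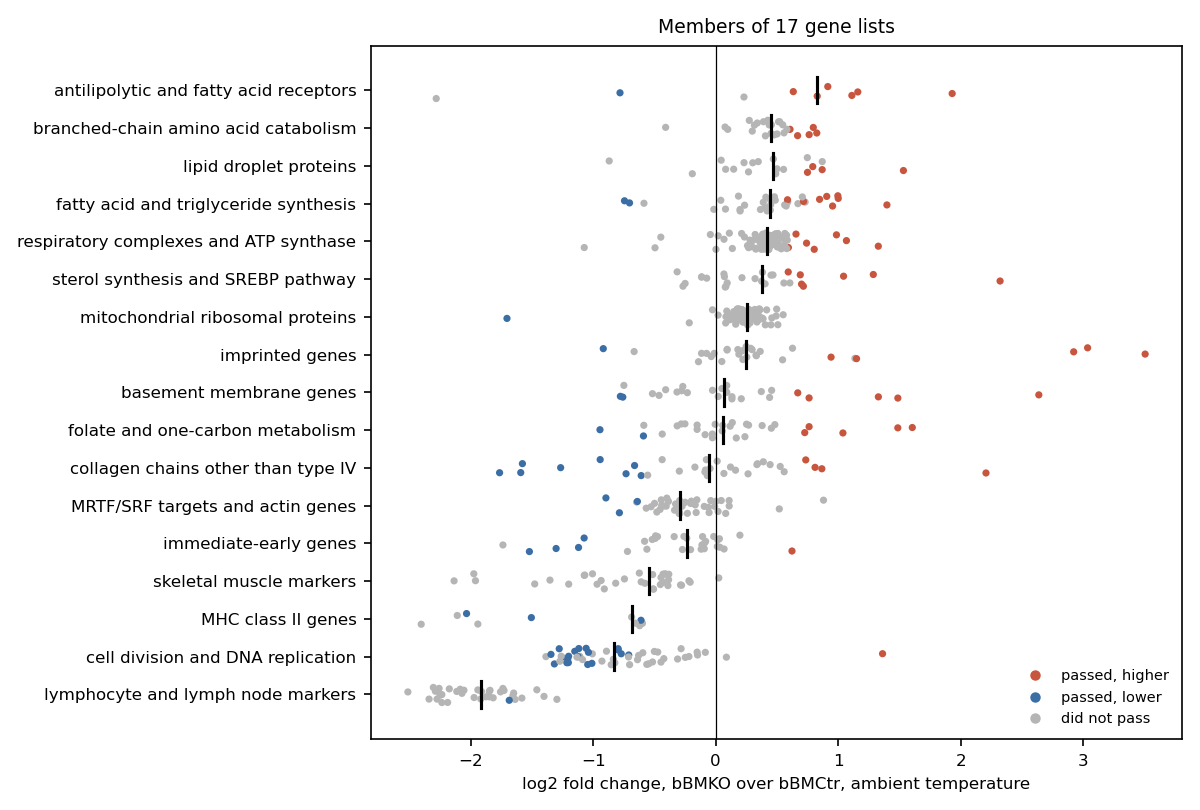
Log2 fold change of bBMKO over bBMCtr for each tested member of 17 lists, with 1 point per gene, coloured where it passed as higher (red) or lower (blue), and the list's median as a black line. Medians run from 0.83 for the antilipolytic and fatty acid receptors to -1.92 for the lymphocyte markers, of which 1 passed.

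Among nerve markers 1 of 20 was higher and 3 were lower, with 3 higher and 1 lower without bBMCtr replicate 2 and none higher and 4 lower without bBMCtr replicate 1. Calca, the gene of the neuropeptide CGRP and of calcitonin, was at 6.95, 28 and 27.4 CPM in bBMCtr and 1.63, 0.967 and 2.81 CPM in bBMKO. Every bBMKO library was lower than every bBMCtr library, at -3.52, SE 0.52, adjusted p = 0.00566, and it was in the stable set. The study also picked Calca for its matrix heatmap. Mcam, a surface protein of pericytes and endothelium, was at 162, 185 and 169.8 CPM in bBMCtr and 345, 314 and 388 CPM in bBMKO (1.02, SE 0.16, adjusted p = 0.00827) and was the only pericyte and smooth muscle marker of 14 that passed. Of 31 adipose progenitor markers 2 were higher and 3 lower (none lower without bBMKO replicate 1), and of 28 adipogenic transcription factors 1 was higher (4 without bBMCtr replicate 3).

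The cold libraries offer the same contrast in other mice. They share no library with the ambient comparison, but all 6 carried Y-linked transcripts and almost no Xist, so temperature and sex cannot be told apart between the 2 comparisons. Age may differ too, at 6 weeks in the legends and 10 to 12 weeks in the methods for cold acclimation, and cannot be separated either. In the cold the same thresholds gave 1491 higher (9.67%) and 2022 lower (13.1%) genes. Of the 598 genes higher at ambient temperature 566 (94.6%) had the same sign in the cold and 444 (74.2%) passed in the same direction. Of the 732 lower genes 673 (91.9%) and 546 (74.6%) did so, and 78.2% of all genes tested had the same sign. In the stable set 254 of 287 higher genes (88.5%) and 102 of 132 lower genes (77.3%) passed the same way in the cold. Lymphocyte markers summed to 1734 to 2740 CPM in cold bBMCtr and 72.8 to 144.1 CPM in cold bBMKO, without overlap, and the same direction of the lower genes was not tested apart from that difference.

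Of the clock factors that passed, these had the same direction in the cold, with log2 fold changes of 6.69 for Npas2, 2.40 for Nfil3, 1.62 for Cry1, -1.58 for Nr1d1, -1.67 for Dbp and -1.99 for Ciart. The genotype effect differed between the comparisons in 118 genes (0.766%), by the edgeR interaction test at the same thresholds, with 26 (0.169%) more positive and 92 (0.597%) more negative in the cold. An unadjusted p under 0.05 was reached by 1224 genes (7.94%). Of the 118 genes 16 were among the higher and 16 among the lower genes at ambient temperature. Cdkn1a rose by 2.47 at ambient temperature and by 3.93 in the cold (interaction 1.47, adjusted p = 0.0567), and Npas2 by 5.52 and 6.69 (interaction adjusted p = 0.211). Npas2 was at only 0.469 to 0.906 CPM in the cold bBMCtr libraries. Calca was lower at ambient temperature and at 0.16 in the cold (interaction adjusted p = 0.151), where all 6 libraries were at only 0.798 to 0.999 CPM. The mammary markers, at 1709 to 3492 CPM in the ambient libraries, summed to 53.8 to 88.2 CPM in the cold, and their part in the interaction was not tested beyond a fit with their level as a covariate, which gave 159 genes.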

How the data were processed

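Total RNA was extracted from iWAT with Trizol, and poly(A) libraries (Kapa mRNA HyperPrep) were sequenced as single reads. The authors aligned the reads with STAR to mm10 and deposited counts of uniquely mapped reads per GENCODE gene from HTSeq, together with log2(FPKM + 0.1) values computed by the authors. With versions, annotation release and strand setting not given in the sources used here, overlapping and antisense genes may share reads. Every count column was matched to its sample by name, and 0 columns were left unmapped. Of 24091 genes, the 15413 whose FPKM exceeded 0.1 in 50% or more of the libraries were tested.

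From the deposited counts, edgeR 4.0.16 (R 4.3.3) was fitted to all 12 libraries with TMM factors and 1 term per group, and the quasi-likelihood test gave the genotype contrast at each temperature and their difference (the interaction). All p-values are two-sided and adjusted by Benjamini-Hochberg over all genes tested. The passing thresholds follow the study's methods. Log2 CPM used a prior count of 2. Each SE was derived from the test, as the absolute log2 fold change over the square root of the quasi-likelihood F statistic. Alternatives were DESeq2 1.42.0, limma 3.58.1 on the deposited log2 values, other size factors, filters and thresholds, marker covariates (mean log2 CPM of a list), a replicate block and leaving out each library. The fitting script was tested on simulated data.

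The text names the 10 leading genes per direction, the clock factors, Ucp1 and genes of the MRTF/SRF pathway, and up to 4 passing genes per list. The members and lists were chosen with earlier results of these data known, and counts of list members are descriptions without a test of the list. The effect of temperature within a genotype is not analysed here, and some genes that the naming rule covers are not reported here. Of the lists, glucocorticoid response with metallothioneins and heat shock with cold-inducible genes had no passing member, and NAD metabolism with sirtuins (1 higher, 2 lower of 24), futile cycles (1, 0 of 16), cholesterol transport with LXR (1, 1 of 21), fatty acid uptake (2, 1 of 21), insulin signalling (2, 0 of 30), complement (1, 3 of 34), endothelial markers (0, 1 of 28), red blood cell markers (0, 1 of 5), cytosolic ribosomal proteins (0, 1 of 84) and adipocyte markers (2, 0 of 12) had 4 or fewer.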

Additional observations from a re-analysis of the deposited data

Results flagged for a closer look

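The effect of genotype differed between ambient temperature and cold in 118 genes by the edgeR interaction test. Sex also differed between these sets of libraries, and age may have differed, so temperature, sex and age cannot be told apart. Groups of 3 are too small for a test of single outlying libraries. Each value that follows is the genotype effect in the cold minus that at ambient temperature on the log2 scale. Of the genes named here, Cdkn1a (1.47, adjusted p = 0.0567) and Npas2 (1.18, adjusted p = 0.211) rose more in the cold. The basement membrane protein Npnt (1.98, adjusted p = 0.211) also rose more in the cold, as did the imprinted Zim1 (2.66, adjusted p = 0.229). The cold bBMCtr libraries held Npas2 at only 0.469 to 0.906 CPM and Zim1 at 0.755 to 2.67 CPM. In bBMKO, Npas2 was at 59.5 to 61.7 CPM at ambient temperature and 58.3 to 74.7 CPM in the cold. Lpin2, a phosphatidate phosphatase of triglyceride synthesis, was at 0.59 at ambient temperature and at -0.28 in the cold (difference -0.86, adjusted p = 0.15). Dkkl1, a Dickkopf-like secreted protein, was at 0.69 and -2.20 (difference -2.89, adjusted p = 0.0405). Its level was 11.5 to 22.7 CPM in the ambient libraries but only 0.0584 to 1.06 CPM in the cold libraries. Id4 and Calca, both lower at ambient temperature, were at 0.49 and 0.16 in the cold, where Calca was at 0.798 to 0.999 CPM in all libraries (differences 1.78, adjusted p = 0.159, and 3.67, adjusted p = 0.151). The count of 118 became 1767 without ambient bBMCtr replicate 1, the library with the most lymph node RNA. With the lymphocyte marker level as a covariate the count was 78, and the part of lymph node RNA was not tested beyond the covariate fits.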

How the results depend on the processing

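Over the 134 genes named, 2655 values kept their direction and side of the threshold under the alternatives, 250 lost and 15 gained a call, and 28 changed sign. Sign changes were in genes that did not pass, apart from the Y-linked Ddx3y, which ran from -1.84 (without bBMKO replicate 2) to 7.84. With one library left out, Per1 ran from -0.33 to 0.021, Per2 from -0.33 to 0.038, Arntl2 from -0.21 to 0.087, Bhlhe40 from -0.35 to 0.70, Bhlhe41 from -0.32 to 0.19, Rora from -0.034 to 0.24, Vcl from -0.19 to 0.14 and Fhl1 from -0.67 to 0.21. Bhlhe40 was at -0.060 with library size alone, -0.40 with the lymphocyte and -0.46 with both covariates, -0.013 with the replicate block and -0.48 in the 6 ambient libraries with the lymphocyte covariate. Bhlhe41 was at 0.078 with the muscle, 0.064 with the mammary and 0.077 with the muscle covariate in the 6 ambient libraries, Vcl at 0.010 and 0.0063 with the muscle and mammary covariates, and Rora at -0.0086 with library size alone. Genes higher numbered 598 and lower 732, and leaving out one library gave 357 to 858 and 169 to 1231. The 6 ambient libraries alone gave 372 and 246, with a lymphocyte covariate 307 and 404, and with a muscle covariate 599 and 1189, these last 2 chosen after seeing the data. Testing log2(FPKM + 1) in limma gave 3.3e+02 and 265. Lower genes numbered 1165 with library size alone, 137 at an adjusted p under 0.05 without a fold minimum, 1106 with the muscle covariate and 333 with both covariates. DESeq2 gave 575 and 836. The 118 interaction genes became 288 with DESeq2, 76 with limma on the deposited log2 values and 38 with 1 added to FPKM, 24 at the stricter adjusted p, 78 and 66 with the lymphocyte and with both covariates, and 41 to 1767 without one library. The causes were not tested. Replicate numbers share only a number: deviations of ambient libraries with the same number were correlated at -0.685, -0.367 and -0.699, and a replicate block gave 571 higher, 480 lower and 57 interaction genes. At 17887795 to 21436282 counts and 3 mice per group, small changes of low genes could not be shown.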

Other observations

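Genes that rose in bBMKO sometimes lay side by side. Of 15392 pairs of neighbouring tested genes on a chromosome, 77 (0.5%) had both members higher, 52 (0.338%) both lower and 50 (0.325%) one of each, and in 11 of the 77 the genes overlap, so that reads may be shared. These pairs were looked at after their values were seen, and no test was made. The 77 include pairs of the Y-linked genes read in bBMKO replicate 2. Col4a4 and Col4a3 (1.33 and 2.64 on the log2 scale) lie 0.07 kb apart, Xrcc3 and Zfyve21 (1.83 and 1.08) 0.29 kb, Hmgcs1 and the kinase gene Nim1k (2.32 and 0.99) 1.83 kb, and Zim1 and Peg3 (2.92 and 3.03) 9.53 kb. Tmem82 and the mitochondrial carrier Slc25a34 (1.64 and 5.36) lie 0.19 kb apart on chromosome 4.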
